A study of Mus musculus with 12 samples.

Results

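The Reg genes encode small secreted C-type lectins, and 5 of them were followed here: Reg3b, Reg3g, Reg3a, Reg1 and Reg4. They were chosen by symbol, and their 11 listed transcripts were summed to 5 of the 35688 genes in the deposited table. RNA had been measured in bulk from the full thickness of the colon of 2-week-old mice. There were 6 Il10-/- Tnfr1-/- colons (replicates 1 to 6), whose mice lacked interleukin 10 and also TNF receptor 1, and 5 Il10-/- colons (replicates 1, 2, 3, 5 and 6), whose mice lacked interleukin 10 alone. All mice therefore lacked interleukin 10, and no colon with an intact Il10 gene was part of the comparison. The comparison asks how the colon of Il10-/- mice, which are prone to spontaneous colitis, differs in early life when TNF receptor 1 is also missing.

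Reg3b and Reg3g are released by the intestinal epithelium onto its surface, where Reg3g binds the peptidoglycan of Gram-positive bacteria and kills them. Both genes are known to be switched on in epithelial cells when microbes are sensed through MyD88, and by interleukin 22 acting through its receptor and STAT3. Reg4 is different in that it marks the deep crypt secretory cells of the mouse colon, a cell type placed among the stem cells at the crypt base. Reg1 is best known as a product of pancreatic acinar cells, and human REG3A is a bactericidal lectin of the gut.

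Values are abundances per transcript length that the authors had scaled between libraries, so levels of different genes can be set side by side. They are not read counts, so sequencing depth is unknown and no counting error can be given. Library totals on this scale ran from 804109 to 1378971. Tnfrsf1a, which encodes TNF receptor 1, had 12.0 to 17.0 in Il10-/- Tnfr1-/- colons and 30.6 to 78.1 in Il10-/- colons, with no overlap. Its difference did not pass the test over all genes (limma log2 fold change -1.60 ± 0.22 SE, Benjamini-Hochberg adjusted p = 0.125), and it had the smallest adjusted p of all genes. RNA of Il10 was listed in every library although all mice are labelled Il10-/-, at 3.27 to 7.23 in Il10-/- Tnfr1-/- and 9.06 to 22.9 in Il10-/- colons. Sums over a gene do not show which part of a disrupted gene was read, so neither gene checks the labels in full. The tissue label was checked against markers. All 14 listed genes of absorptive colonocytes were detected, with summed levels of 3674.5 to 54058.9 in Il10-/- Tnfr1-/- and 3812.4 to 11071.7 in Il10-/- colons. The listed genes of the small intestine summed to 320.3 to 1995.5 in Il10-/- Tnfr1-/- and 289.6 to 888.7 in Il10-/- colons, and Defa22 and Mptx2 of that list were at 0 throughout.

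In the mm10 annotation 4 of the members lie close together on chromosome 6. Reg3b spans chr6:78370657-78373466 and Reg3a chr6:78380709-78383827, followed by Reg1 at chr6:78422711-78428667, all on the plus strand. Reg3g, at chr6:78466269-78468872, is on the minus strand. Reg4 lies apart at chr3:98222156-98236748 on the plus strand. The promoters of Reg3b and Reg3g are shown because these genes moved together more closely than any other pair of members. Each run of 300 bases is taken from RefSeq on GRCm38.p6, starts 250 bases before the RefSeq start of the gene and lies at chr6:78370635-78370934 (plus strand) for Reg3b and chr6:78468825-78469124 (minus strand) for Reg3g. Capitals mark the runs of 12 or more bases that the aligned promoters share without a mismatch.
Reg3b: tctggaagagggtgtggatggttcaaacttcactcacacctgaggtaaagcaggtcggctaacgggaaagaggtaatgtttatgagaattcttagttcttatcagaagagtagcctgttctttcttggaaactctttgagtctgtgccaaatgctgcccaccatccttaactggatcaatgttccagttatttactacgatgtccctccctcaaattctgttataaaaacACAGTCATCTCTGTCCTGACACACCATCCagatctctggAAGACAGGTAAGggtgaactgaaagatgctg
Reg3g: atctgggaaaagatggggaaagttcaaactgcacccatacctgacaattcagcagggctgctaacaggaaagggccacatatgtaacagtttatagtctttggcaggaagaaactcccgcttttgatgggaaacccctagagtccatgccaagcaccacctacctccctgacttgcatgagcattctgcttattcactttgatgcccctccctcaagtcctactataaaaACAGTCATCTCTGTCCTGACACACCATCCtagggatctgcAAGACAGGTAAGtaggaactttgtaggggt

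In the best alignment these promoters were identical at 210 bases, or 70% of the 300, whereas the 9 other pairs of member promoters reached 52.7% to 61.3%. The order depends on the measure. Over aligned positions alone, Reg3b with Reg3g had 71.4% of 294, below Reg3a with Reg3g at 73.9% of 249. The RefSeq start of Reg3b lies inside the span given above, whose own start comes from the GENCODE annotation. Counting the RefSeq start as 0, the longest shared run, of 29 bases, starts at -20 in both genes and crosses the start site. The other shared run, of 12 bases, starts at 19 in Reg3b and at 20 in Reg3g. Promoters were also searched on both strands for TATAAA, for the STAT motif TTCNNNGAA and for the NF-kB motif. TATAAA starts at -29 in Reg3b and at -27 in Reg3g, and 13.6% of 32851 mouse promoters of this length hold it on either strand. The Reg3b promoter holds a STAT match, TTCTTGGAA, at -129, as do 8.3% of promoters, and the Reg3g promoter holds an NF-kB match, GGGAAACCCC, at -123, as do 8.46%. Reg1 holds TATAAA at -30, none of these letters matched in the windows of Reg3a or Reg4, and a match is only a description of the sequence.

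The level of Reg3b differed widely from colon to colon within each genotype. Reg3b, a lectin of the gut surface, had 1336.7, 220.3, 50.1, 1822.8, 4966.0 and 1388.4 in replicates 1 to 6 of Il10-/- Tnfr1-/-. In replicates 1, 2, 3, 5 and 6 of Il10-/- it had 9.32, 4639.7, 1189.5, 7577.4 and 25423.9. The lowest and the highest library were both Il10-/-, and they enclosed every Il10-/- Tnfr1-/- library. Among all genes of a library, ordered from the highest level, Reg3b ranked 13 in Il10-/- Tnfr1-/- replicate 5 and 2104 in replicate 3. It ranked 4 in Il10-/- replicate 6, where it made up 1.84% of the library, and 7445 in Il10-/- replicate 1, where it made up 0.001%. The highest level was 2727.2 times the lowest.

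Reg3g, the peptidoglycan-binding lectin, followed nearly the same order at a lower level. It had 214.3, 51.1, 17.6, 487.6, 1202.5 and 519.7 in replicates 1 to 6 of Il10-/- Tnfr1-/-. The Il10-/- colons had 7.43, 732.1, 239.8, 1940.5 and 6898.5 in replicates 1, 2, 3, 5 and 6. Again the Il10-/- libraries held both ends of the range, 928.9-fold apart, and the genotypes overlapped.

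Reg3a was at the edge of detection. Its level was 0 to 3.51 in Il10-/- Tnfr1-/- colons, with a median of 0.692, and 0 to 10.6 in Il10-/- colons, with a median of 2.23. It was at 0 in Il10-/- Tnfr1-/- replicate 3 and in Il10-/- replicate 1, which were also the libraries with the least Reg3b and Reg3g. Reg1 stayed between 0.135 and 1.92 in Il10-/- Tnfr1-/- colons and between 0 and 1.67 in Il10-/- colons, and it was over 1 in 4 of the 11 libraries. The other Reg genes in the table were as low: Reg2 had 0.257 to 0.976 in Il10-/- Tnfr1-/- and 0.642 to 1.8 in Il10-/- colons, and Reg3d did not exceed 0.592 in Il10-/- Tnfr1-/- or 0.78 in Il10-/- colons. Of the pancreatic acinar markers, Prss1 and Prss3 were at 0 in every library and 4 of 17 passed the filter on low values described below.

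Reg4, the marker of deep crypt secretory cells, ran differently. It had 26.7, 71.8, 212.2, 65.3, 14.4 and 923.9 in replicates 1 to 6 of Il10-/- Tnfr1-/-. Replicates 1, 2, 3, 5 and 6 of Il10-/- had 188.2, 28.5, 10.7, 8.94 and 11.7. All 6 Il10-/- Tnfr1-/- colons lay above the Il10-/- median of 11.7, and 2 of them, replicates 3 and 6, lay above the highest Il10-/- colon. The highest of the 11 levels was 103.4 times the lowest. Whether a colon holds fewer cells of a type or less RNA in each cell cannot be told apart in bulk tissue, here or in any result on these genes.

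**Figure D1:**
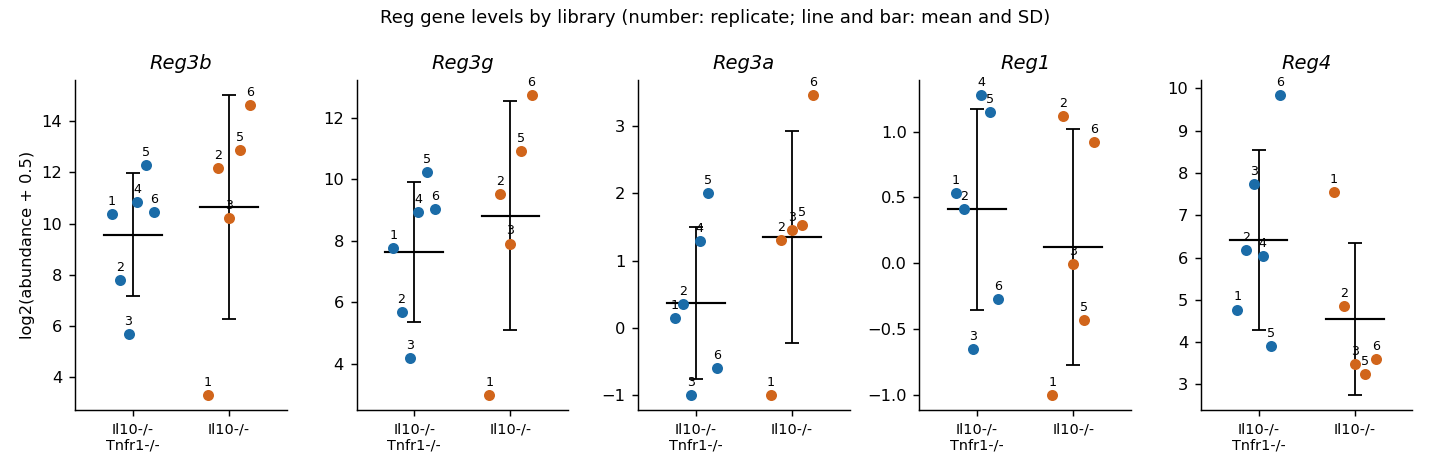
Level of each Reg gene in each library, as log2(abundance + 0.5), for Il10-/- Tnfr1-/- (blue, left) and Il10-/- (orange, right) colons; points are libraries with their replicate number, the line is the mean and the bar the SD. The genotypes overlap for every gene, and Il10-/- replicate 1 is lowest for Reg3b and Reg3g while Il10-/- replicate 6 is highest.

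By median level the order in Il10-/- Tnfr1-/- colons was Reg3b (1362.6), Reg3g (351.0), Reg4 (68.6), Reg1 (0.885) and Reg3a (0.692). In Il10-/- colons it was Reg3b (4639.7), Reg3g (732.1), Reg4 (11.7), Reg3a (2.23) and Reg1 (0.496). Reg3a and Reg1 had ranges that overlapped in both genotypes, so their order is not larger than the spread. The order of Reg3b and Reg4 was not the same in every colon. Reg4 was the higher of the pair in Il10-/- Tnfr1-/- replicate 3, at 75.8% of the summed Reg level, and in Il10-/- replicate 1, at 91.8%. In Il10-/- replicate 6 Reg4 made up 0.0363% of that sum. Together the 5 genes took between 0.0348% and 0.655% of the abundance of an Il10-/- Tnfr1-/- library and between 0.022% and 2.35% of an Il10-/- library.

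For the tests, a gene was kept if its abundance was over 1 in at least 5 of the 11 libraries, which left 13561 genes and all members but Reg1. Values were used as log2(abundance + 0.5), which understates the change of low genes such as Reg3a. On this scale the SD of Reg3b over all libraries was 3.31, against a median of 0.43 over all genes tested, and 7 of the 13561 genes had a larger one. Reg3g had an SD of 2.92, with 20 genes above it, and Reg4 2.13, with 62 above it. Reg3a, at 1.38, had 342 genes above it. The spread was as large within genotypes, since with genotype means removed, the residual SD was 3.44 for Reg3b, 3.01 for Reg3g, 1.99 for Reg4 and 1.35 for Reg3a, against a median of 0.42 over all genes.

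**Figure D2:**
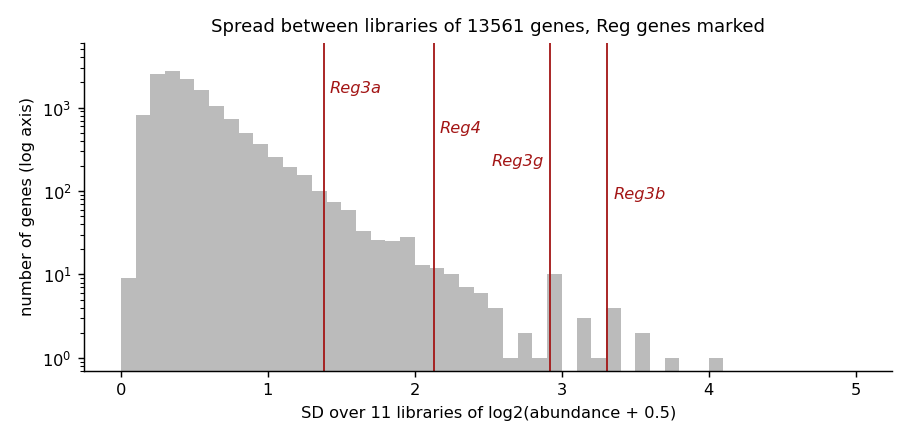
Number of the 13561 tested genes (log axis) by the SD of log2(abundance + 0.5) over the 11 libraries, with the Reg genes marked by lines. Reg3b (3.31), Reg3g (2.92) and Reg4 (2.13) lie far into the upper tail, and Reg3a (1.38) at its edge.

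None of the 4 members tested differed between the genotypes beyond the spread between colons. Reg3b averaged 9.56 ± 2.40 on the log2 scale in Il10-/- Tnfr1-/- and 10.64 ± 4.40 in Il10-/- colons (SD, n = 6 and 5). Its log2 fold change was -1.08 ± 1.79 (SE), with a 95% interval of -4.97 to 2.81 (limma, Benjamini-Hochberg adjusted p = 0.788). Reg3g averaged 7.63 ± 2.28 in Il10-/- Tnfr1-/- and 8.82 ± 3.72 in Il10-/- colons, a log2 fold change of -1.18 ± 1.56 (SE), with an interval of -4.58 to 2.22 (limma adjusted p = 0.733). Both intervals reach far to either side of 0, so these colons do not show that either lectin gene was alike in the genotypes.

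Reg3a averaged 0.37 ± 1.13 in Il10-/- Tnfr1-/- and 1.35 ± 1.59 in Il10-/- colons on the log2 scale, a fold change of -0.98 ± 0.72 (SE; limma adjusted p = 0.574). For each of Reg3b, Reg3g and Reg3a, 5 of 6 Il10-/- Tnfr1-/- colons lay below the Il10-/- median, and none lay below the lowest Il10-/- colon. Reg4 was on the other side, at 6.41 ± 2.14 in Il10-/- Tnfr1-/- and 4.55 ± 1.80 in Il10-/- colons, a log2 fold change of 1.86 ± 1.04 (SE) with an interval of -0.40 to 4.12 (limma adjusted p = 0.536). Each member was also tested by an exact permutation test, two-sided, with 462 assignments of the colons and a smallest possible p of 0.00216. There p was 0.656 for Reg3b, 0.53 for Reg3g, 0.26 for Reg3a and 0.152 for Reg4. Reg1, which was not part of the limma fit, differed by 0.29 on the log2 scale (exact permutation p = 0.571).

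The number of members called at an adjusted p under 0.05 was 0 of 4, against 0 of 13561 genes (0%) in the same limma fit. No member reached an unadjusted p under 0.05, which 8.34% of all genes did, 3.6% with a lower and 4.74% with a higher level in Il10-/- Tnfr1-/- colons. No member had genotypes that did not overlap, as 0.575% of all genes had. In the authors' deposited table, 7 of the 11 member transcripts carry a q-value, and these lie between 0.684 and 0.849. The log2 folds of the authors' deposited table are -2.09 for the main Reg3b transcript, -2.08 for Reg3g, -1.33 for Reg3a and 1.84 for Reg4. Its header does not name the direction. Transcript ENSMUST00000032491.14 of Tnfrsf1a, a gene lower in Il10-/- Tnfr1-/- colons, has -1.79 there. A negative fold can thus be read as a lower level in Il10-/- Tnfr1-/- colons.

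The estimates leaned on single colons. Without Il10-/- replicate 1, the colon with the least Reg3b, the log2 fold change of Reg3b was -2.92 (limma unadjusted p = 0.0342, adjusted p = 0.254) and that of Reg4 was 2.61 (unadjusted p = 0.0191, adjusted p = 0.248). Reg3a was then at -1.57 (limma unadjusted p = 0.0272, adjusted p = 0.252) and Reg3g at -2.64 (unadjusted p = 0.0506, adjusted p = 0.276). Small p values were common in that fit, where 2450 of 13483 genes had an unadjusted p under 0.05, against 1131 of 13561 with all libraries. Without Il10-/- replicate 6, the log2 fold change of Reg3b was -0.08, and without Il10-/- Tnfr1-/- replicate 3 it was -0.30. Without Il10-/- Tnfr1-/- replicate 6, the colon with the most Reg4, the log2 fold change of Reg4 was 1.17. The sample names start with a digit from 1 to 4 whose meaning the labels do not give. Among names that start with 1, which cover 2 Il10-/- Tnfr1-/- and 3 Il10-/- colons, the log2 fold changes were 0.52 for Reg3b, -0.09 for Reg3g, -0.33 for Reg3a and 0.17 for Reg4. The other digits hold 1 genotype each, so there the digit and the genotype cannot be told apart.

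**Figure D3:**
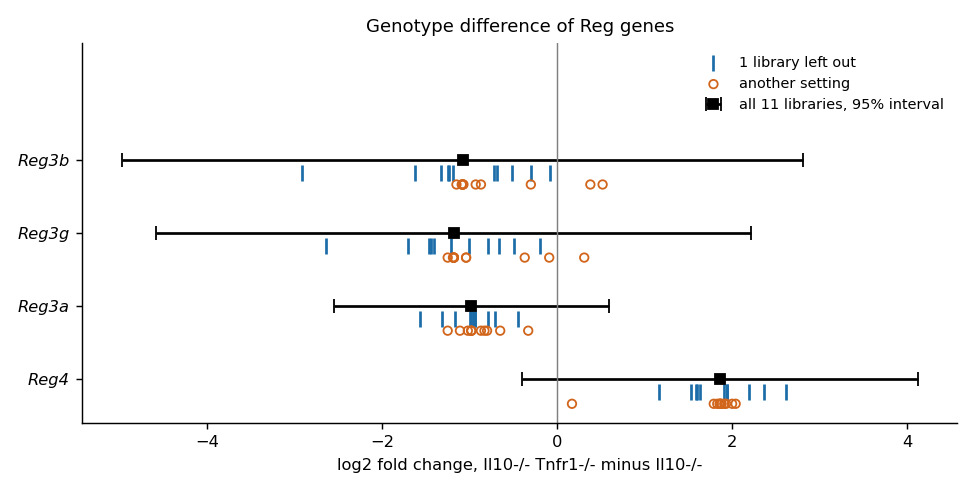
Log2 fold change, Il10-/- Tnfr1-/- minus Il10-/-, of each tested Reg gene with its 95% interval over all 11 libraries (black), with 1 library left out (blue ticks) and under another setting (orange circles). Every interval includes 0, and the Reg3b estimate runs from -2.92 to -0.08 as single libraries are left out.

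Across colons the 3 Reg3 genes moved together, and Reg4 ran against Reg3a. Over the 11 libraries Reg3b and Reg3g had a Pearson r of 0.99 (100000 permutations, p = 1e-05, the smallest they can give, adjusted p = 6e-05 over the 6 member pairs) and a Spearman rho of 0.98 (permutation p = 1e-05, adjusted p = 6e-05). Reg3a had an r of 0.85 with Reg3b (permutation p = 5e-04, adjusted p = 0.0015, rho 0.84 with adjusted p = 0.00336). Its r with Reg3g was 0.85 as well (permutation p = 0.00095, adjusted p = 0.0019, rho 0.85 with adjusted p = 0.00336). With genotype means removed, r was 0.99 for Reg3b with Reg3g, 0.86 for Reg3a with Reg3b and 0.85 for Reg3a with Reg3g. Within the 6 Il10-/- Tnfr1-/- colons alone, r of Reg3b with Reg3g was 0.98 (exact permutation p = 0.00278). There the relations of Reg3a did not pass, with an r of 0.73 with Reg3b (exact permutation p = 0.0986) and of 0.68 with Reg3g (exact permutation p = 0.139).

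Reg4 had an r of -0.80 with Reg3a (permutation p = 0.00276, adjusted p = 0.00414, rho -0.84 with adjusted p = 0.00336) and of -0.62 with Reg3b (permutation p = 0.0402, adjusted p = 0.0483, rho -0.62 with adjusted p = 0.0511). Its r of -0.57 with Reg3g did not pass the threshold (permutation p = 0.0651, adjusted p = 0.0651, rho -0.61 with adjusted p = 0.0511). The relations were computed again without Il10-/- Tnfr1-/- replicate 3 and Il10-/- replicate 1, the libraries farthest from the median. Then r was 0.98 for Reg3b with Reg3g, 0.77 for Reg3a with Reg3b, 0.73 for Reg3a with Reg3g and -0.74 for Reg3a with Reg4. It was -0.48 for Reg3b with Reg4 and -0.36 for Reg3g with Reg4, so these relations rest in large part on the 2 libraries. Without Il10-/- Tnfr1-/- replicate 6 alone, r was -0.87 for Reg3b with Reg4 (permutation adjusted p = 0.0016) and -0.86 for Reg3g with Reg4 (permutation adjusted p = 0.00202). With genotype means removed, r with Reg4 was -0.77 for Reg3a (permutation adjusted p = 0.00834), -0.62 for Reg3b (adjusted p = 0.0487) and -0.54 for Reg3g (adjusted p = 0.0825). Within the 6 Il10-/- Tnfr1-/- colons no relation of Reg4 passed. There r with Reg4 was -0.76 for Reg3a (exact permutation p = 0.0792), -0.40 for Reg3b (p = 0.424) and -0.27 for Reg3g (p = 0.603). No correlation was computed among names that share a first digit, which hold at most 5 colons.

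**Figure D4:**
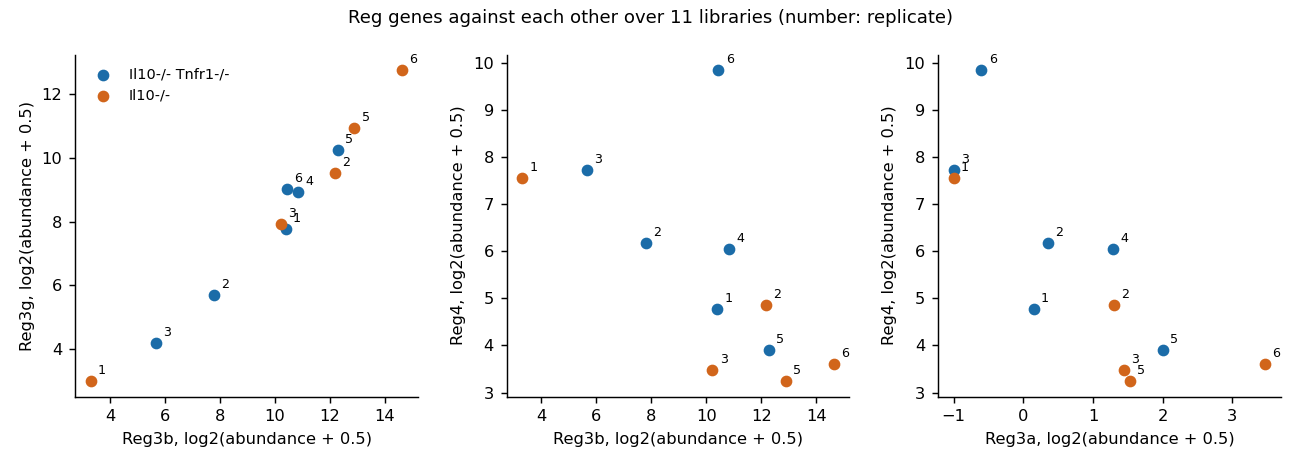
Reg3g against Reg3b (left), Reg4 against Reg3b (middle) and Reg4 against Reg3a (right), each as log2(abundance + 0.5), for Il10-/- Tnfr1-/- (blue) and Il10-/- (orange) libraries labelled by replicate. Reg3b and Reg3g lie along a line (r = 0.99), and Il10-/- Tnfr1-/- replicate 6, with 923.9 of Reg4, stands off the falling trend of Reg4 on Reg3b.

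The ratio of Reg3b to Reg3g was steadier than the level of either. Reg3b was 1.26 to 6.34 times as abundant as Reg3g, with a median of 3.9 over the 11 colons. The log2 ratio averaged 1.94 ± 0.45 in Il10-/- Tnfr1-/- and 1.83 ± 0.89 in Il10-/- colons (SD, n = 6 and 5; exact permutation p = 0.833). The lowest ratio was that of Il10-/- replicate 1. The ratio of Reg3b to Reg4 ran from 0.0495 in Il10-/- replicate 1 to 2167.6 in Il10-/- replicate 6. Its log2 value averaged 3.17 ± 3.82 in Il10-/- Tnfr1-/- and 6.12 ± 6.10 in Il10-/- colons (exact permutation p = 0.34).

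Nearly all of the Reg3b and Reg3g signal came from 1 transcript of each gene. The 783-base transcript ENSMUST00000096904.5 carried 88.0% to 100% of Reg3b in a library, and the 771-base transcript ENSMUST00000032089.2 carried 97.6% to 99.5% of Reg3g. A shorter coding transcript of Reg3b, ENSMUST00000203266.1, was above 0 only in Il10-/- Tnfr1-/- replicates 3 and 4, at 6.49% and 9.96% of the gene. A Reg3b transcript with a retained intron, ENSMUST00000204760.1, made up at most 3.39%. Although the genes are related, 0 of the 75-base windows of the 11 member transcripts, the length of a read, occur in a transcript of another gene. Shorter shared stretches and near matches were not searched. Whether some reads of an abundant member were assigned to a low one such as Reg3a was therefore not tested.

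The genes whose levels ran most like those of each member were found among the 13557 other genes tested. For Reg3b these were Hoxd4 (r = 0.91), a homeobox transcription factor, Apol10a (r = 0.89) and Urad (r = 0.89). Hoxd4 is a symbol of 2 gene identifiers in the table, and the one meant is ENSMUSG00000101174. It had 1.35 in Il10-/- Tnfr1-/- replicate 3 and 0.291 in Il10-/- replicate 1, the colons with the least Reg3b, and 4.32 to 15.1 in the others. For Reg3g the closest were Ndufa4, Mal and Cdc42ep2, each with an r of 0.88. For Reg3a they were Gm3755 (r = 0.93), Zfp488 (r = 0.92) and the pseudogene Rps12-ps5 (r = 0.92), none of which exceeded 5.72 in any library. For Reg4 they were Wdr26 (r = 0.96), Capza2 (r = 0.95), which encodes a subunit of the actin capping protein, and Fbxo38 (r = 0.95). These values are the highest of very many over 11 libraries and are given as a description.

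Genes that act upstream of the Reg3 genes were measured in the same colons. Of 26 listed inducing cytokines, receptors and signalling genes, 18 passed the filter, 9 with a lower and 9 with a higher mean in Il10-/- Tnfr1-/- colons. Their median log2 fold change was -0.01, against 0.05 over all genes. None was called by limma after Benjamini-Hochberg adjustment. Against 8.34% of all genes, 2 of the 18 had an unadjusted p under 0.05. These were Il18, an epithelial cytokine, at -1.77 ± 0.31 (SE), and Socs3, a STAT3-induced inhibitor of cytokine signalling, at -1.64 ± 0.52 (SE; limma adjusted p = 0.536 for each). Il22 itself did not pass the filter and was at or below 0.116 in 9 of 11 libraries. It had 2.62 in Il10-/- Tnfr1-/- replicate 2 and 7.82 in Il10-/- replicate 1, the colon with the least Reg3b. Il22ra1, the epithelial subunit of the interleukin 22 receptor, had 2.83 to 12.5 in Il10-/- Tnfr1-/- and 1.91 to 13.3 in Il10-/- colons, with its highest level in Il10-/- replicate 1. Over the 11 libraries its r was -0.81 with Reg3b and 0.78 with Reg4, given as a description since it was picked after its values were seen.

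Other epithelial genes known to respond to interleukin 22 had lower means in Il10-/- Tnfr1-/- colons. All 21 listed genes were tested, and all 21 had a mean below that of Il10-/- colons, against 44.5% of all genes. Of these, 15 had an unadjusted p under 0.05 (3.6% of all genes in this direction), none was called by limma, and 2 had genotypes that did not overlap (0.575% of all genes). Their median log2 fold change was -1.75. Il18 and Socs3 are on this list too, and Il18 had 69.1 to 110.4 in Il10-/- Tnfr1-/- and 123.4 to 458.1 in Il10-/- colons, without overlap. Saa2, an acute-phase protein gene, had a log2 fold change of -2.52 ± 0.50 (SE; limma adjusted p = 0.536). Summed over the list, the level was 591.3 to 2002.0 in Il10-/- Tnfr1-/- and 1442.8 to 14167.1 in Il10-/- colons. Saa1 alone made up 12061.7 of the highest sum, that of Il10-/- replicate 6. This list, like the other gene lists, was chosen with earlier results of these data known. Its genes were measured in the same colons and can vary together, so they are not 21 separate observations. The counts are therefore given as a description and not as a test of the list.

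Il10-/- replicate 1 stood apart between these groups of genes. It had the least Reg3b (9.32) and Reg3g (7.43) of all colons and a summed level of 7382.9 for the interleukin 22 targets, the second highest of all colons. Its Socs3 level, 134.8, was the highest, where Il10-/- Tnfr1-/- colons had 6.06 to 34.7 and the other Il10-/- colons 19.1 to 67.5. Its Saa1 level was 5611.4, where Il10-/- Tnfr1-/- colons had 147.8 to 1578.0 and the other Il10-/- colons 937.3 to 12061.7. Saa1 is on the interleukin 22 list and made up most of the sum of 7382.9, so the sum and the Saa1 level are not separate observations. Over all 11 libraries the median r of all genes tested with Reg3b was -0.15, and that of the 21 genes was -0.02, with 8 above 0. Without Il10-/- replicate 1 it was 0.54, with 19 of 21 above 0, and without any other single library it lay between -0.30 and -0.01.

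**Figure D5:**
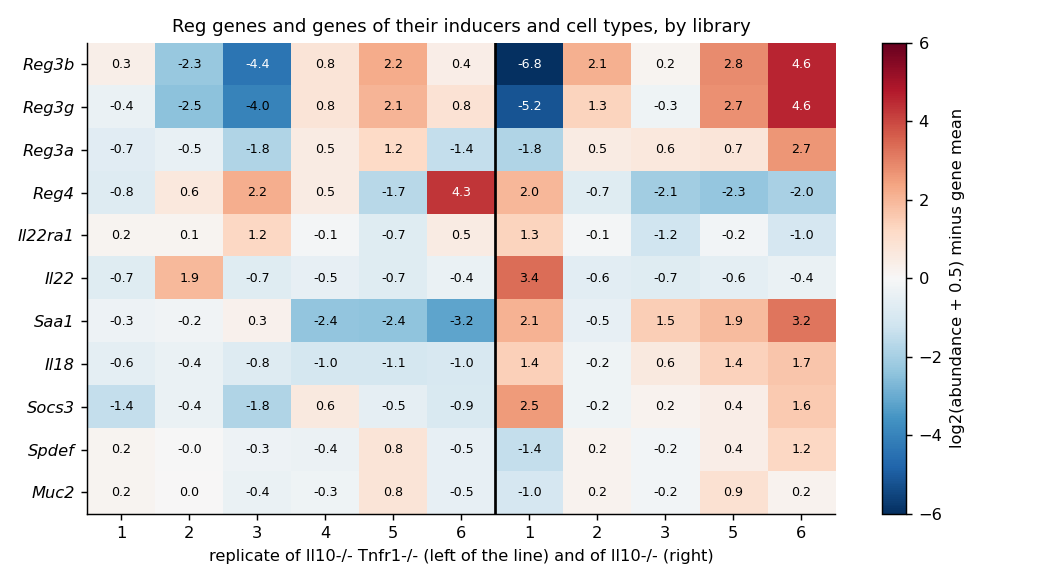
Deviation of log2(abundance + 0.5) from the mean of the gene over 11 libraries, for the Reg genes, genes that act upstream of them or respond to interleukin 22, and the goblet cell genes Spdef and Muc2, with Il10-/- Tnfr1-/- libraries left of the line and Il10-/- libraries right. In Il10-/- replicate 1 Reg3b and Reg3g are low while Il22, Saa1, Il18 and Socs3 are high, and Il10-/- replicate 6 is high for Reg3b, Reg3g, Saa1 and Il18.

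Of 21 other secreted antimicrobial genes, 14 passed the filter. Of these, 12 had a lower mean in Il10-/- Tnfr1-/- colons, against 44.5% of all genes, and the median log2 fold change was -0.96. None was called, and 4 had an unadjusted p under 0.05, all lower, against 3.6% of all genes in this direction. Among the 4 were Sprr2h at -2.62 ± 0.77 (SE) and the protease inhibitor gene Slpi at -2.98 ± 1.00 (SE; limma adjusted p = 0.536 for each). Their r with Reg3b had a median of 0.03, against -0.15 over all genes, and ran from -0.78 (Lyz2) to 0.71. Retnlb, the gene of the goblet cell protein RELMbeta, is at that upper end and was picked after its values were seen, and its level was 44.7 to 845.0 in Il10-/- Tnfr1-/- and 200.8 to 985.6 in Il10-/- colons. Of 5 genes that encode Reg receptors or partners at the gut surface, none had an unadjusted p under 0.05, against 8.34% of all genes. Lypd8, which keeps flagellated bacteria off the colonic epithelium, was at -0.35 ± 0.31 (SE) and Extl3, described as a Reg receptor, at 0.22 ± 0.22 (SE).

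Genes of secretory cell types, to which Reg4-producing cells belong, had means on both sides of 0. Of 17 goblet and deep crypt secretory cell genes, 16 were tested, 10 with a lower and 6 with a higher mean in Il10-/- Tnfr1-/- colons, and the median log2 fold change was -0.07. The smallest p values were those of Atoh1, the secretory fate regulator (0.72 ± 0.28 SE), and Kit, which marks deep crypt secretory cells (0.76 ± 0.41 SE), both at a limma adjusted p of 0.536. In the 3 colons with the most Reg4, Kit had 4.26 (Il10-/- Tnfr1-/- replicate 6), 16.6 (Il10-/- Tnfr1-/- replicate 3) and 4.16 (Il10-/- replicate 1), within a range of 3.11 to 20.1 over all colons. In the same order, the smooth muscle genes described below summed to 827.7, 8010.3 and 892.7. Which cells of the full-thickness colon the Kit RNA came from was not tested. The r of the 16 genes with Reg4 had a median of -0.28, against 0.09 over all genes. It ran from -0.77 to 0.16 (Atoh1), with 3 of 16 above 0 and Kit at -0.17. Most were thus below 0, many of them weakly, and the relation was not tested. Without Il10-/- Tnfr1-/- replicate 6 the r of the 16 genes ran from -0.78 to 0.71, with 5 above 0. Their median was then -0.36, against 0.20 over all genes. Their r with Reg3b had a median of 0.18, against -0.15 over all genes, and ran from -0.52 (Creb3l1) to 0.84 (Spdef). Spdef, a goblet cell transcription factor picked after its values were seen, was lowest in Il10-/- replicate 1 (19.7) and highest in Il10-/- replicate 6 (128.5), as Reg3b was, and lay between 38.8 and 93.5 in Il10-/- Tnfr1-/- colons. Of 13 enteroendocrine genes, 12 were tested with a median of 0.90. An unadjusted p under 0.05 was found for 4, all higher, against 4.74% of all genes in this direction. Among the 4 were Chgb (1.26 ± 0.35 SE) and Gcg (0.95 ± 0.30 SE).

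The make-up of the tissue samples varied, and these values stand beside the Reg results. The 10 smooth muscle genes summed to 827.7 to 8010.3 in Il10-/- Tnfr1-/- and 184.4 to 3505.5 in Il10-/- colons. All 10 had a higher mean in Il10-/- Tnfr1-/- colons, whereas 44.5% of all genes had a lower one. Of the 10, 9 had an unadjusted p under 0.05 (4.74% of all genes in this direction) and none was called. Among the 9 were Actg2 (2.57 ± 0.92 SE) and Mylk (1.66 ± 0.66 SE). With a smooth muscle score as a covariate, the log2 fold change was 0.38 for Reg3b, 0.31 for Reg3g, -0.65 for Reg3a and 1.93 for Reg4. The 12 epithelial genes summed to 8202.8 to 23731.9 in Il10-/- Tnfr1-/- and 10887.6 to 23737.0 in Il10-/- colons, with a median log2 fold change of -0.26 and the smallest p for Elf3 (-0.51 ± 0.31 SE) and Cldn7 (-0.47 ± 0.31 SE). With an epithelial score as a covariate Reg3b was at -0.30 and Reg4 at 2.04. The part of muscle or epithelium in the spread of the Reg genes was not tested.

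Over the 11 colons the epithelial genes had a median r of 0.36 with Reg3b, with 11 of 12 above 0, against a median of -0.15 over all genes. It was 0.16 without Il10-/- replicate 6 (8 of 12 above 0) and 0.56 without Il10-/- replicate 1 (12 of 12), the ends as single libraries were left out. The 10 smooth muscle genes had a median r of -0.37 with Reg3b, with 0 of 10 above 0. Their median lay between -0.62 (without Il10-/- replicate 1) and -0.22 (without Il10-/- replicate 6 or Il10-/- Tnfr1-/- replicate 3) as single libraries were left out. The epithelial and smooth muscle relations are given as a description. The 12 epithelial genes summed to 8296.5 in Il10-/- Tnfr1-/- replicate 3 and to 15374.8 in Il10-/- replicate 1, both inside the range of the other colons, whose lowest was 8202.8 and whose highest was 23737.0. The absorptive colonocyte genes summed to 3674.5 and 3812.4 in these colons, the lowest sum of each genotype. The smooth muscle genes summed to 8010.3 in Il10-/- Tnfr1-/- replicate 3, the highest of that genotype, and to 892.7 in Il10-/- replicate 1. Cdx2, a homeobox transcription factor of the hindgut epithelium, had 62.7 in Il10-/- Tnfr1-/- replicate 3 and 23.7 in Il10-/- replicate 1, and 103.7 to 257.9 in the other 9. It was picked from the epithelial list after its values were seen. The absorptive colonocyte genes had a median log2 fold change of -0.15, with Car4 at -2.21 ± 0.70 (SE) and Cyp2c55 at 2.83 ± 1.25 (SE), and a median r of 0.48 with Reg3b. Of 13 neutrophil genes, 5 passed the filter, with a median log2 fold change of -2.45, led by S100a8 (-3.85 ± 0.97 SE) and Ly6g (-3.0 ± 1.01 SE). S100a8 and S100a9 stand on both the neutrophil and the interleukin 22 list. The neutrophil genes summed to 7.98 to 100.8 in Il10-/- Tnfr1-/- and 36.0 to 542.3 in Il10-/- colons, with the highest sum in Il10-/- replicate 1, and Elane was at 0 in all.

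Markers of other tissues were listed as well. The pancreatic acinar genes that passed the filter had a median log2 fold change of -0.54, with the smallest p for Ctrl (-0.73 ± 0.41 SE) and Cela1 (-0.57 ± 0.34 SE), and summed to 43.4 to 137.1 in Il10-/- Tnfr1-/- and 61.8 to 148.1 in Il10-/- colons. Of 16 genes of the small intestine, 11 passed, with a median of 0.71 and the smallest p for Apoa4 (1.46 ± 0.43 SE) and Fabp2 (1.53 ± 0.90 SE). Their highest sum, 1995.5, was that of Il10-/- Tnfr1-/- replicate 6, the colon with the most Reg4, where Fabp2 alone had 1639.9. Of 10 genes of squamous epithelium, 3 passed, with a median of -0.34, and the list summed to 7.29 to 10.9 in Il10-/- Tnfr1-/- and 10.2 to 17.3 in Il10-/- colons. None of these genes was called by limma, and their part in the Reg results was not tested.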

How the data were processed

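Bulk RNA from the colon was read as single-end reads of 75 bases from stranded mRNA libraries, per the labels' protocols. The submitters' processing notes name CASAVA, kallisto, sleuth and the build mm10, without versions. How they were set is not stated in those notes. The authors deposited, per transcript, an abundance signal for each library, which is scaled and not a count. The authors' deposited mean, on a natural log scale, exceeded the log of this signal by an amount that grew with log length (slope 1.078, 10763 transcripts of at least 1000 bases), as a signal divided by length would show. The authors' deposited p-value, q-value and log2 fold are quoted only as theirs.

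The labels list 12 samples, and 11 were matched to a column by title. Il10-/- replicate 4 was not analysed here, and 1 further per-sample column, which fits no title, was not used. Replicates were numbered in sample order and are not paired. Litter, sex and batch are not in the labels.

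After 866 repeated rows were dropped, 113193 transcripts were summed to genes by identifier. Of these, 109294 (96.6%) matched GENCODE M21, which gave coordinates and transcript sequences. limma 3.58.1 in R 4.3.3, with an intensity trend and robust moderation, was fitted on log2(abundance + 0.5) to genes with an abundance over 1 in at least 5 libraries, two-sided, with Benjamini-Hochberg adjustment over 13561 genes and a threshold of 0.05. The fit was tested on simulated data. Fold changes are Il10-/- Tnfr1-/- minus Il10-/-. Permutation tests used numpy 2.4.6, the adjustment over member pairs scipy 1.17.1 and promoter alignments Biopython 1.88.

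The members, gene lists and tests were chosen with earlier results of these data known. Named genes are the members, the other Reg genes, Tnfrsf1a and Il10, the 3 genes most like each member, and the 2 genes of smallest p of each list. Il22, Il22ra1, Saa1, Retnlb, Spdef, Muc2, Creb3l1, Lyz2, Cdx2, S100a9, Elane, Prss1, Prss3, Defa22 and Mptx2 were added after their values were seen. Alternatives were other pseudocounts, filters, scalings and moderation, muscle and epithelial scores as covariates, the names that start with 1, and leaving out each library.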

Additional observations from a re-analysis of the deposited data

Results flagged for a closer look

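Il22, the gene of an inducer of the Reg3 genes, had 1 colon far above the rest in each genotype. It was 2.62 in Il10-/- Tnfr1-/- replicate 2, with 0.11 as the next value of that genotype, and 7.82 in Il10-/- replicate 1, with 0.116 as the next. Reg2, a relative of the members, had 1.8 in Il10-/- replicate 6, the colon with the most Reg3b, and 0.883 in the next Il10-/- colon. The gaps exceed Dixon's 95% limit for a single far value. In all, 20 groups of values were examined, and chance alone marks about 1 group in 20.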

How the results depend on the processing

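Across 22 alternatives, 0 members were called in each. The count of all genes called was 0 in 20 of them, with 1 gene, Tnfrsf1a, under quantile normalization and 0 to 2 as single libraries were left out (Il18 and Tnfrsf1a without Il10-/- replicate 2). Reg3a kept a lower and Reg4 a higher mean in all 22. Leaving out 1 library moved the log2 fold change of Reg3b between -2.92 and -0.08, of Reg3g between -2.64 and -0.20, of Reg3a between -1.57 and -0.45 and of Reg4 between 1.17 and 2.61. Reg3b turned to 0.38 and Reg3g to 0.31 with the smooth muscle score, and Reg3b to 0.52 among names that start with 1, where 5 libraries remain. The cause was not tested. Of genes with an unadjusted p under 0.05, 56.9% of 1131 were higher in Il10-/- Tnfr1-/- colons, but 75.2% of 922 with equal library totals, 40.3% of 1212 with median-ratio factors and 41.3% of 1311 with quantile normalization. Equal totals moved the median over all genes to 0.19 on the log2 scale, against 0.05, and Reg4 to 2.00. Of 6 member pairs, 5 passed an adjusted p of 0.05, and 4 to 6 did as single libraries were left out. The negative r of Reg3b with Reg4 missed the threshold in 12 of 19 alternatives and ranged from -0.87 to -0.56 without single libraries. That of Reg3g with Reg4 passed in 2, at -0.86 without Il10-/- Tnfr1-/- replicate 6 and -0.60 with equal totals (permutation adjusted p = 0.0472). No paired analysis was possible because replicate numbers were given in sample order and do not pair colons across genotypes. Low genes, Reg3a and Reg1, are limited by a depth that is unknown.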
